A study of Rattus norvegicus with 18 samples.

Results

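The 10 genes described here encode chaperones and folding enzymes of the endoplasmic reticulum (ER) together with regulators of the unfolded protein response (UPR), and they are Hspa5, Hsp90b1, Xbp1, Herpud1, Dnajb9, Pdia4, Sdf2l1, Calr, Creld2 and Manf. They were chosen by name, as the rows of the count tables whose gene symbol equals one of these names, which gave 10 of the 31463 rows. All 10 passed the filter on low counts and stand among the 14398 genes tested. The cells were primary cultures of neurons and glia from rat brain cortex, kept until day 10 in vitro, and total RNA was taken 4 h after glutamate excitotoxicity, the damage of neurons by excess glutamate, had been modelled with 100 µM glutamate. The 18 libraries fall into 6 groups of 3, namely Control, Glutamate, Memantine, Glutamate_vesicles, Glutamate_secret and Glutamate_BPC. Memantine, which blocks NMDA receptors, was the positive control at 100 µM. Its label names no glutamate, and the design text of the series places it within the glutamate model, so it is counted below among the 15 libraries with glutamate. The last 3 groups received, 1 day before glutamate, material secreted by glial progenitor cells of human origin. The labels identify the vesicle group as extracellular vesicles, but do not tell which of Glutamate_secret and Glutamate_BPC was the fractionated protein and which the total secretome, and the names are used as given. Nothing in the labels ties the libraries to separate cultures or animals, so the p-values measure the spread between these libraries, which may be technical. The methods of the study speak of experiments repeated on unrelated cultures, without tying a library to one.

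Proteins that enter the secretory pathway are folded in the ER by chaperones of the Hsp70, Hsp90 and lectin families and by protein disulfide isomerases. When unfolded proteins accumulate, the membrane sensors IRE1, PERK and ATF6 start the UPR. IRE1 splices the messenger RNA of Xbp1 into the form that encodes an active transcription factor, ATF6 is cleaved into another, and both raise the transcription of chaperone genes, whereas PERK slows translation and favours the factor ATF4. Loss of calcium from the ER, whose chaperones need it, is a known trigger. The tables give the summed level of each gene, so the spliced form of Xbp1 was not measured.

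Several of the genes hold a regulatory sequence of the UPR in their promoters. The motifs are known from the UPR and the genes were chosen as UPR genes. Their matches are thus a description and no independent result. The ER stress response element (ERSE) is written CCAAT, then 9 bases of any kind, then CCACG, and ERSE-II is ATTGG, 1 base and CCACG. Both were searched on both strands, from 250 bases before to 50 bases after the transcription start in the RefSeq promoter table of the build GRCr8, which is not the build the authors counted on. Of the 10 genes, 9 have an entry there, all but Manf. ERSE was found in 5 of the 9, Hspa5, Hsp90b1, Xbp1, Calr and Creld2, against 22 of all 33469 windows (0.0657%). ERSE-II was found in Herpud1 alone of the 9, against 17 of all windows (0.0508%). Hsp90b1 held 2 copies of ERSE, on opposite strands. The UPRE motif TGACGTGG was in none of the 9 windows (0.595% of all windows), and the ATF4 element, TGATG, 1 base and AA, was in Herpud1 (3.98% of all windows). In Dnajb9, Pdia4 and Sdf2l1 none of the 4 motifs was found, which says only that these letters are not in this window. Taken alone the parts of ERSE are common, since CCAAT was in 37.5% and CCACG in 31.6% of all windows, and each was in all 9. The stretches that hold ERSE or ERSE-II follow because they show what these promoters have in common. They read 5′ to 3′ on the strand of the gene, end before the transcription start, and have the motif in capitals, so that a motif on the opposite strand appears as its reverse complement.
Hspa5, chr3:38452953-38453011, plus strand: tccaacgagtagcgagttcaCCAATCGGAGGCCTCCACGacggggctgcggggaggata
Hsp90b1, chr7:23012327-23012489, minus strand: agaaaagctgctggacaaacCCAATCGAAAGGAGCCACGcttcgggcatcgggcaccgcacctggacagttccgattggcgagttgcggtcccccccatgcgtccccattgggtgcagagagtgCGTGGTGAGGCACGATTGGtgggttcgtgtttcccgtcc
Xbp1, chr14:84604538-84604596, plus strand: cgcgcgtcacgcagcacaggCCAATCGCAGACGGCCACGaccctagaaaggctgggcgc
Calr, chr19:40213117-40213173, plus strand: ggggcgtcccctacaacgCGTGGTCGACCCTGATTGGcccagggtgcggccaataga
Creld2, chr7:121789219-121789277, plus strand: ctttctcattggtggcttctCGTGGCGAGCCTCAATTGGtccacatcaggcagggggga
Herpud1, chr19:10614801-10614851, minus strand: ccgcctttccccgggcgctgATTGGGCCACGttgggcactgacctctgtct

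The ERSE of Hspa5 starts 43 bases before the transcription start, that of Xbp1 65 bases before it, and the copies of Hsp90b1 start 176 and 72 bases before it. In Creld2 it starts 145 bases and in Calr 232 bases before the start. A match is a description of the sequence and not evidence that a factor binds there. Of these ERSE genes, Hspa5, Hsp90b1 and Creld2 met the unadjusted criterion in Glutamate against Control below, and Xbp1 and Calr did not.

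Several facts about the libraries precede the results. Total counts ran from 8409574 to 17206354 per library, and the counts of these genes ran from 25 for Dnajb9 to 25544 for Hspa5. Levels are given in CPM, counts relative to the library total, after TMM scaling, the trimmed-mean method of edgeR, and they are compared within a gene only, since CPM is not corrected for gene length. Control 1 stood apart with 43.0% of its counts on ribosomal RNA (rRNA) rows, where the other libraries had 3.04% to 26.6%. Memantine 3 stood apart from its group in the summed CPM of 10 neuron markers, at 656, where Memantine 1 had 3336 and Memantine 2 had 2330.

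The summed levels of cell type markers moved with the groups. The neuron markers summed to 2107 to 2816 CPM in Control and to 605 to 1142 CPM in Glutamate, and 7 of the 10 passed an unadjusted p below 0.05 with a fold above 1.5 in the direction of Glutamate being lower. The preparation groups lay between 502 and 1091 CPM. The 8 astrocyte markers summed to 2954 to 6399 CPM in Control and 5676 to 11335 CPM in Glutamate, the 7 microglia markers to 37.7 to 99.3 and 88.4 to 299 CPM, and the 8 oligodendrocyte lineage markers to 378 to 665 and 735 to 976 CPM, with no astrocyte, microglia or oligodendrocyte lineage marker past that criterion. Fibroblast and mural cell markers summed to at most 19.5 CPM in any library, with Dcn, Lum and Rgs5 at 0 in 12, 10 and 16 of the 18 libraries, and endothelial markers to at most 4.21 CPM, of which Pecam1 alone could be tested and was lower in Glutamate (log2 fold change -2.04). In bulk RNA, fewer cells of a type and less RNA per cell cannot be told apart. The part of the cell mixture in the differences below was not tested.

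**Figure D1:**
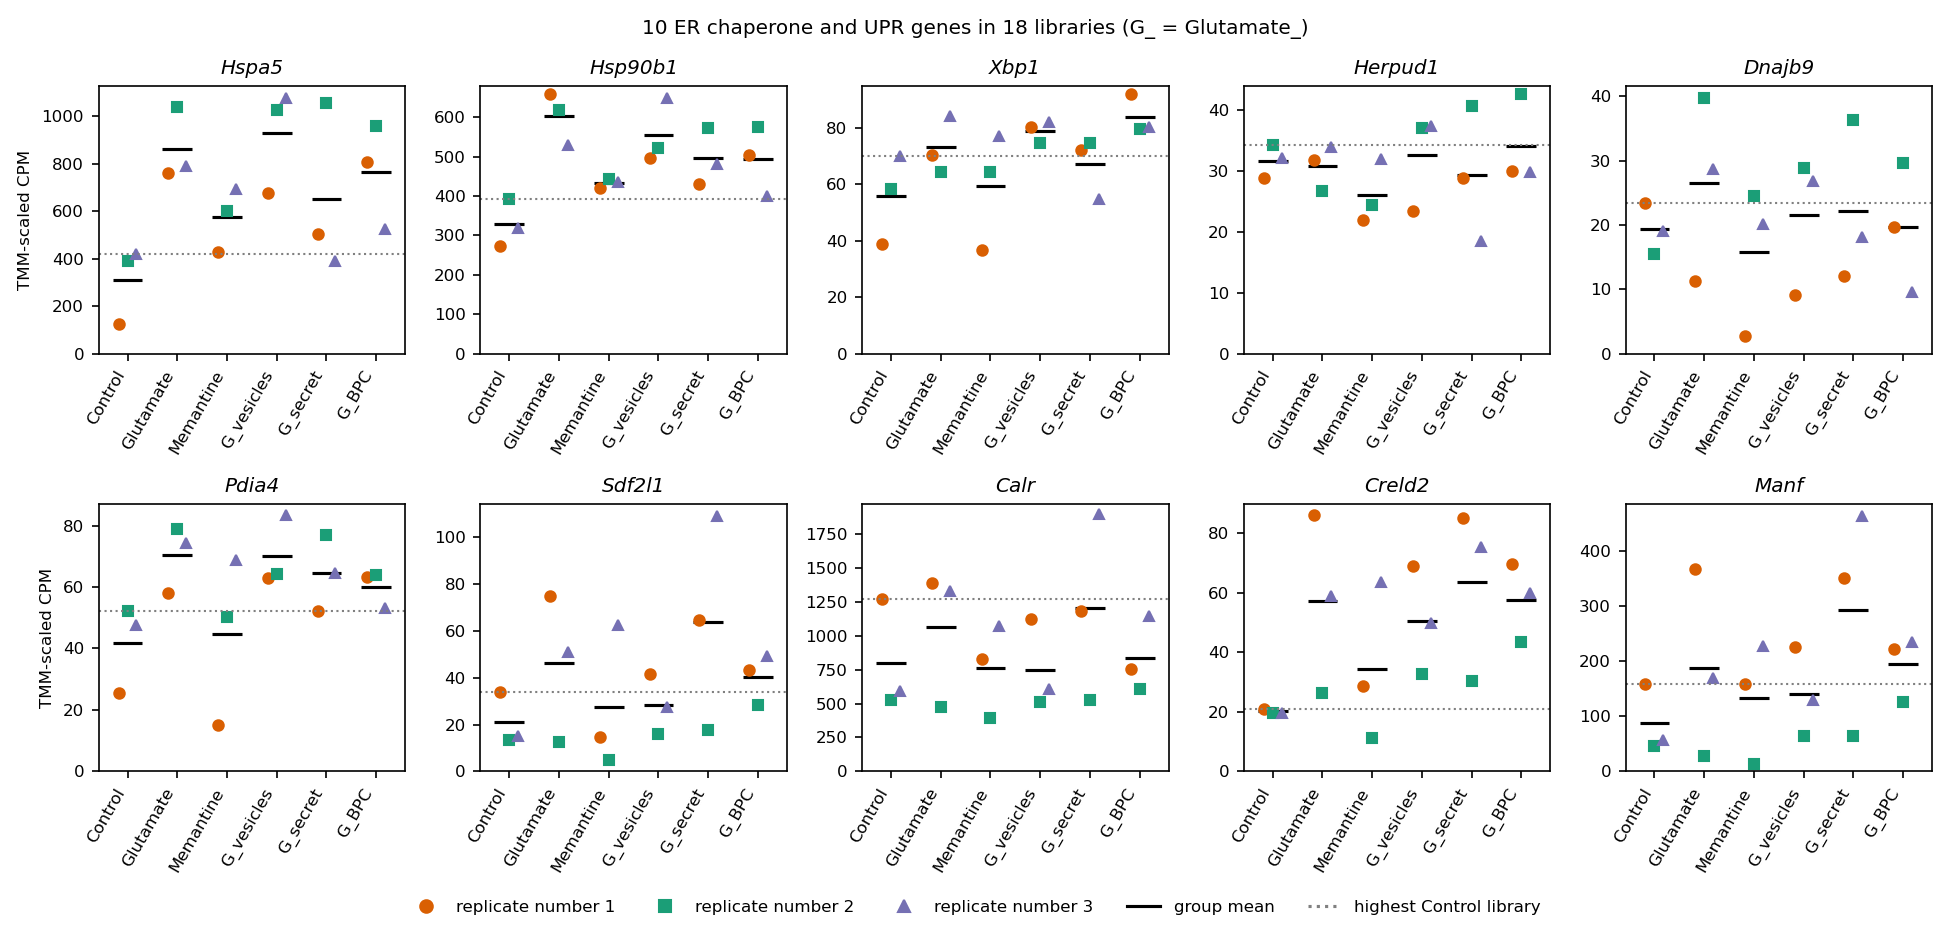
Level of each of the 10 genes in the 18 libraries, in TMM-scaled CPM on a linear axis starting at 0, by group. Points are libraries, with colour and shape for the replicate number of the labels, black bars are group means, and the dotted line is the highest Control library. All 15 libraries with glutamate lie above that line for Hsp90b1, and 14 of 15 for Hspa5 and Creld2.

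The first comparison asks how glutamate exposure changed these genes. Their levels were mostly higher in Glutamate than in Control, led by Creld2, Hspa5 and Hsp90b1, at 2.83, 2.77 and 1.84 times the Control level. None of the 10 reached an adjusted p below 0.05 in the quasi-likelihood test of edgeR, nor did any gene of the table (0% of 14398). The likelihood-ratio test of edgeR called none of the 10 either, and DESeq2 called 1, Hsp90b1 (adjusted p = 0.00768), where it called 1.61% of all genes. At an unadjusted p below 0.05 with a fold above 1.5, the study's own type of criterion, 3 of the 10 passed, all higher in Glutamate, against 8.07% of all genes in either direction. The log2 fold change was above 0 for 9 of the 10, with a median of 0.81, where the median over all genes was 0.085. Ranges without overlap, with every Glutamate library above every Control library, were found for 4 of the 10, Hspa5, Hsp90b1, Pdia4 and Creld2, against 4.48% of all genes.

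Hspa5 encodes BiP, the main Hsp70 chaperone of the ER, which also holds the UPR sensors inactive. Its level was 125, 388 and 420.3 CPM in the Control libraries and 762, 1037 and 788 CPM in the Glutamate libraries, in the order of replicates 1 to 3. The lowest Glutamate library stood well above the highest Control library. The log2 fold change was 1.47 (SE 0.50, unadjusted p = 0.00982, adjusted p = 0.374, edgeR). Control 1 had the lowest level of the 18 libraries, and without it the log2 fold change was 1.09 (unadjusted p = 0.0369).

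Hsp90b1 encodes Grp94, the Hsp90 chaperone of the ER, which folds a narrow set of clients such as integrins and Toll-like receptors. It was measured at 273, 392 and 318 CPM in Control and at 659.6, 618 and 529 CPM in Glutamate. The groups did not overlap, and the Glutamate libraries lay close together. The log2 fold change was 0.88 (SE 0.31, unadjusted p = 0.0112, adjusted p = 0.391, edgeR), and 0.76 without Control 1 (unadjusted p = 0.0326). In a fit of only these groups it no longer passed (unadjusted p = 0.1095).

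Creld2 encodes a secreted ER protein with disulfide isomerase activity that is induced by ER stress. Its Control libraries were nearly equal, at 21.1, 19.8 and 19.6 CPM, whereas those of Glutamate spread over 86.1, 26.4 and 59.1 CPM. Each Glutamate library was above each Control library, although Glutamate 2 was so by a small margin. The log2 fold change was 1.503 (SE 0.57, unadjusted p = 0.0183, adjusted p = 0.450, edgeR), and 1.54 without Control 1 (unadjusted p = 0.0387). Without Glutamate 1 it was 1.09 and no longer passed (unadjusted p = 0.0924).

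Pdia4, the protein disulfide isomerase also known as ERp72, was at 25.4, 52.2 and 47.7 CPM in Control and at 58.1, 78.9 and 74.3 CPM in Glutamate. The ranges did not overlap, yet the difference of 0.75 on the log2 scale (SE 0.43, unadjusted p = 0.0982, edgeR) did not pass. Xbp1, the transcription factor downstream of IRE1, was at 38.8, 58.4 and 70.2 CPM in Control and 70.5, 64.6 and 84.4 CPM in Glutamate, and here the groups overlapped. Its log2 fold change was 0.39 (SE 0.31, unadjusted p = 0.222).

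Herpud1, an ER membrane protein of the degradation machinery and a known target of both ATF6 and ATF4, differed least of the 10. It was at 28.8, 34.4 and 32.1 CPM in Control and 31.8, 26.7 and 34.0 CPM in Glutamate, a log2 fold change of -0.05 (SE 0.32, unadjusted p = 0.890, edgeR). Its promoter holds both ERSE-II and the ATF4 element printed or named above. Dnajb9, the ERdj4 cochaperone of BiP that acts on IRE1, was at 23.4, 15.5 and 19.0 CPM in Control and 11.4, 39.7 and 28.7 CPM in Glutamate. Glutamate 1 lay below all 3 Control libraries and the other two lay above them, so the log2 fold change of 0.47 has an SE of 0.70.

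The remaining genes, Sdf2l1, Manf and Calr, had wide spreads between libraries. Sdf2l1, a partner of the ERdj3 cochaperone, was at 34.0, 13.5 and 15.3 CPM in Control and 74.8, 12.4 and 51.2 CPM in Glutamate. Manf, a neurotrophic factor resident in the ER that binds BiP, was at 159, 46.6 and 56.3 CPM in Control and 367, 28.3 and 170.0 CPM in Glutamate. Calr encodes calreticulin, the calcium-binding lectin chaperone, and was at 1271, 529 and 589 CPM in Control and 1386, 474 and 1331 CPM in Glutamate. In all 3 genes replicate 2 was the lowest library of both groups. The log2 fold changes were 1.15 (SE 0.83) for Sdf2l1, 1.11 (SE 0.96) for Manf and 0.42 (SE 0.59) for Calr, with unadjusted p of 0.186, 0.264 and 0.490 in edgeR. Manf was the only one of the 10 with counts that were not whole, in 18 of 18 libraries. Its reads may in part be shared with another sequence, which was not examined, so its level is uncertain.

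**Figure D2:**
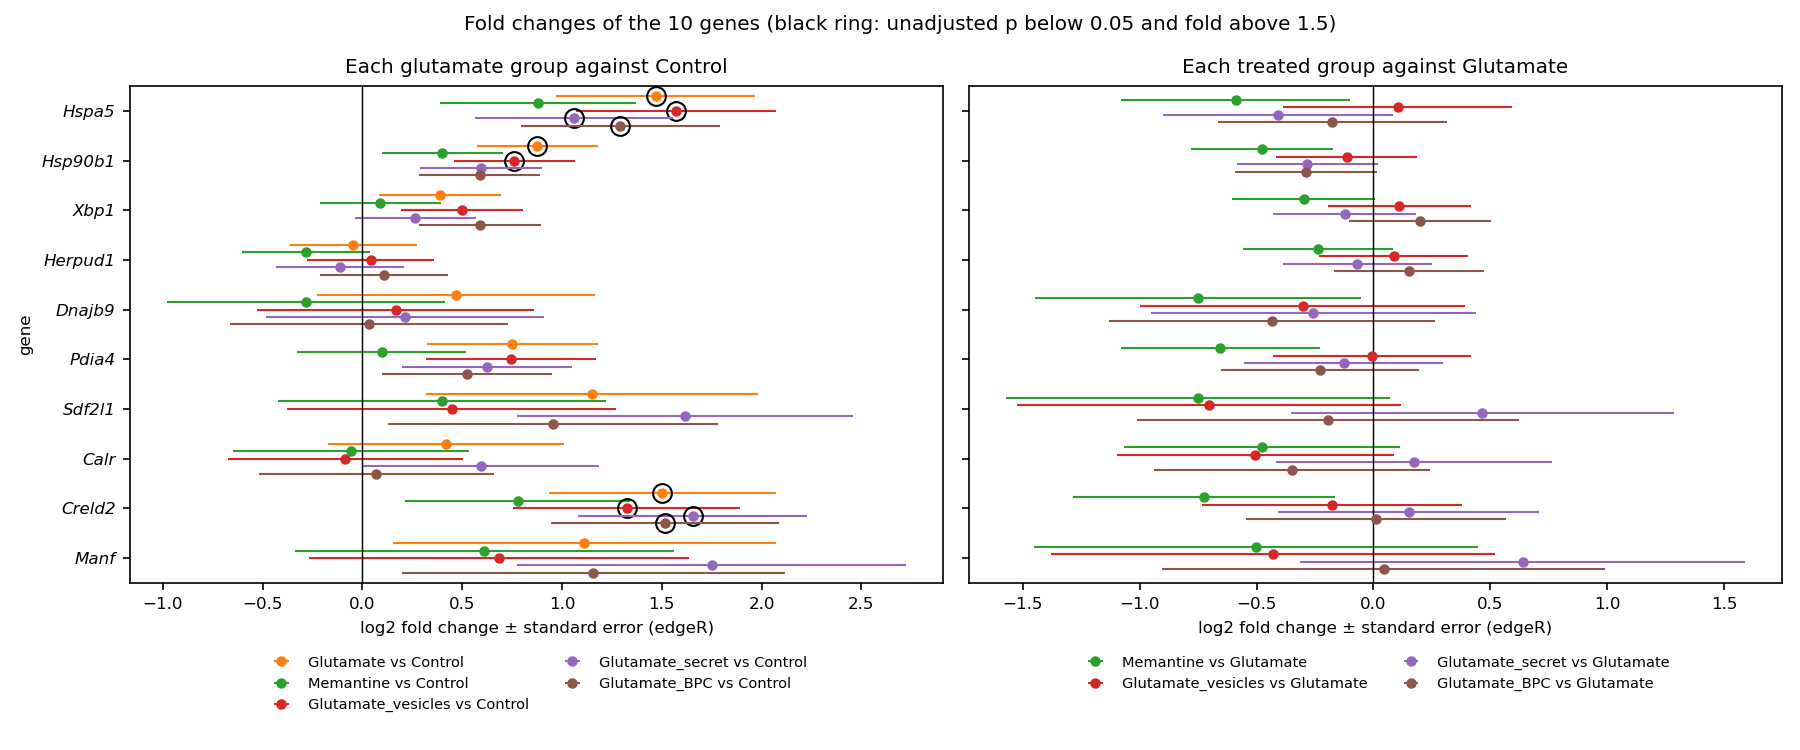
Log2 fold changes of the 10 genes with their standard errors from edgeR, on the left for the 5 groups with glutamate against Control and on the right for the 4 treated groups against Glutamate. Black rings mark an unadjusted p below 0.05 with a fold above 1.5, and they occur only on the left, at Hspa5, Hsp90b1 and Creld2. All comparisons on the left share the Control libraries and all on the right share the Glutamate libraries.

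The second comparison asks what memantine did to these genes in the glutamate model. All 10 were lower on average in Memantine than in Glutamate, with a median log2 fold change of -0.55, where the median over all genes was -0.02. None of the 10 passed either criterion, nor was any called by DESeq2 or the likelihood-ratio test, against 0% of all genes for the adjusted p and 5.06% for the unadjusted p with the fold. For Hspa5 and Hsp90b1 every Memantine library was below every Glutamate library, and 1.13% of all genes had such ranges. Hspa5 was at 426, 598 and 694 CPM in Memantine, and its log2 fold change against Glutamate was -0.59 (SE 0.49, unadjusted p = 0.248, edgeR). Hsp90b1 was at 420.3, 443 and 436 CPM, the tightest group of this gene, with a log2 fold change of -0.48 (SE 0.30, unadjusted p = 0.137). The Memantine libraries of these genes thus lay between the Control and Glutamate ranges, with no overlap with either one.

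Memantine 3, the library with few neuron markers, was the highest Memantine library of most of these genes. Pdia4 was at 15.03, 50.3 and 68.8 CPM, Creld2 at 28.7, 11.2 and 63.8 CPM, and Sdf2l1 at 14.7, 5.001 and 62.4 CPM in Memantine 1 to 3. In each of them Memantine 3 fell inside the range of the other groups with glutamate, while the other two Memantine libraries were near or below Control. Xbp1, at 36.8, 64.4 and 77.2 CPM, and Manf, at 158, 13.1 and 229 CPM, had the same order of Memantine 3 above the rest. Without Memantine 3 the 3 genes Pdia4, Sdf2l1 and Creld2 passed the unadjusted criterion against Glutamate, with log2 fold changes of -1.11, -2.23 and -1.52 and unadjusted p of 0.0247, 0.0206 and 0.0192. None reached an adjusted p below 0.05 there, when 1.73% of all genes were called and 13.5% passed the unadjusted criterion. Same-numbered libraries deviated together in this comparison and were taken as pairs from these data alone. With the number as a block Pdia4 passed the unadjusted criterion with all libraries in the fit (log2 fold change -0.76, unadjusted p = 0.0451, edgeR). So did 7.96% of all genes.

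**Figure D3:**
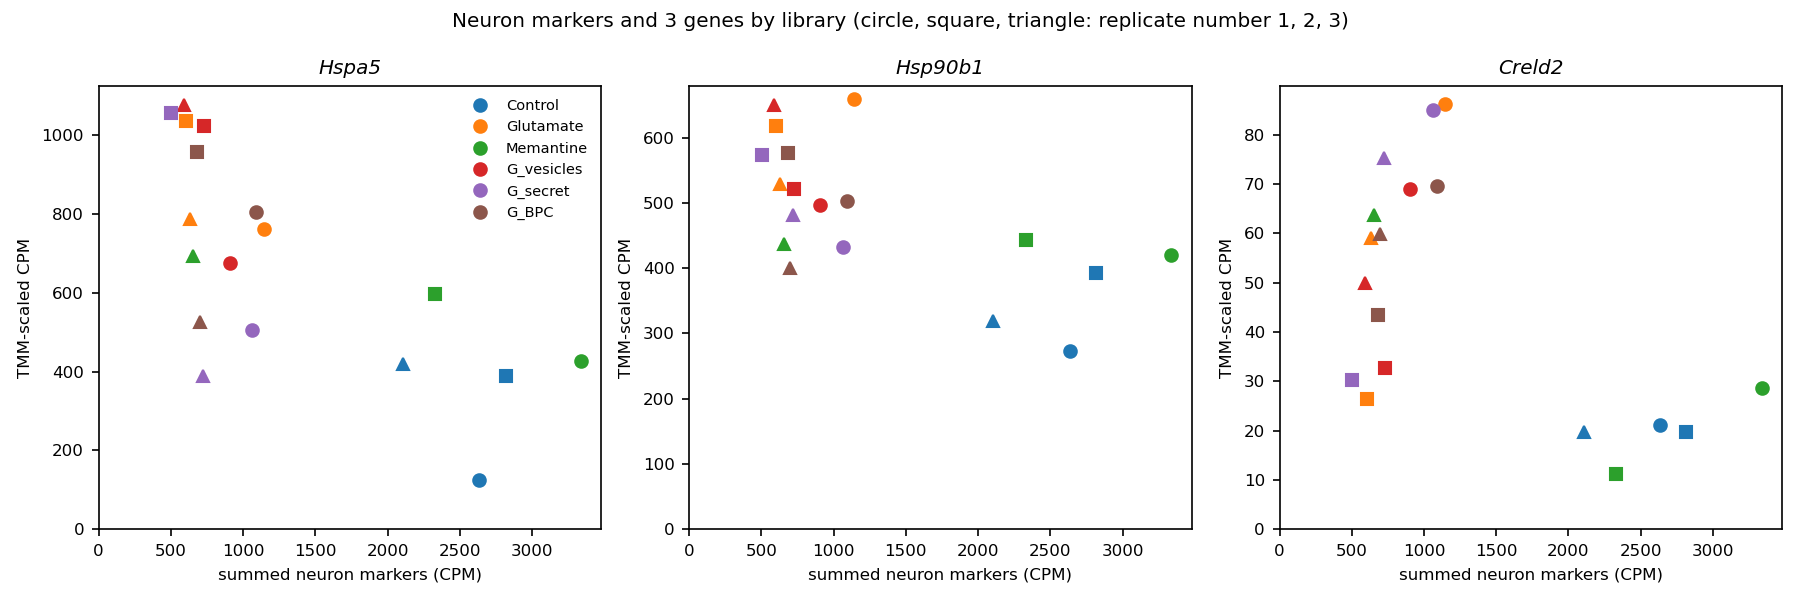
Level of Hspa5, Hsp90b1 and Creld2 against the summed level of the 10 neuron markers in each library, both in TMM-scaled CPM on linear axes from 0. Colours are groups and shapes are replicate numbers. Control lies at 2107 to 2816 CPM of neuron markers, Memantine 1 and 2 at 3336 and 2330 CPM, and Memantine 3 at 656 CPM among the remaining libraries, which lie at 502 to 1142 CPM.

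The plot of neuron markers against Hspa5, Hsp90b1 and Creld2 shows these values side by side. The libraries fall into separate clusters along the marker axis, so no correlation over all of them is given. Within Memantine, the library with the fewest neuron markers had the highest level of Hspa5 and of Creld2, and the levels of Hsp90b1 were nearly equal.

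The next comparisons ask whether the preparations of glial progenitor cells altered these genes after glutamate. Against Glutamate, none of the 10 passed either criterion in any preparation group. No gene of the table was called there (0% each), and 1.08% of all genes for Glutamate_vesicles, 0.674% for Glutamate_secret and 1.06% for Glutamate_BPC passed the unadjusted criterion. The median log2 fold changes of the 10 genes were -0.15, -0.10 and -0.19 in that order. For all 10 genes the range of each preparation group overlapped that of Glutamate, as it did for most genes. Of all 14398 genes, 416 were higher and 487 lower without overlap in Glutamate_vesicles. In Glutamate_secret 201 were higher and 290 lower, and in Glutamate_BPC 415 were higher and 611 lower.

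Hspa5 was at 677, 1025 and 1078 CPM in Glutamate_vesicles, at 505, 1056 and 388 CPM in Glutamate_secret and at 806, 957 and 526 CPM in Glutamate_BPC. Its log2 fold changes against Glutamate were 0.10 (SE 0.49), -0.41 (SE 0.49) and -0.18 (SE 0.49). The lowest of these, Glutamate_secret 3, was the only library with glutamate that fell below the highest Control library for this gene. Hsp90b1 was at 497, 522 and 649.6 CPM, at 432, 573 and 481 CPM, and at 503, 576 and 400.4 CPM in the same groups, with log2 fold changes of -0.12, -0.28 and -0.29 (SE 0.30 each). Creld2 was at 69.0, 32.7 and 49.9 CPM, at 85.1, 30.3 and 75.3 CPM, and at 69.6, 43.3 and 59.9 CPM, with log2 fold changes of -0.18, 0.15 and 0.01 (SE 0.56 each). These errors leave room for differences of either sign, and a p above the threshold does not show that the preparations left these genes as they were.

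Glutamate_secret had the highest single values of the widely spread genes. Manf was at 352, 65.2 and 463 CPM there, Sdf2l1 at 64.6, 17.7 and 109 CPM, and Calr at 1181, 524 and 1895 CPM. Glutamate_secret 3 was the highest of all 18 libraries for each of these, and it had 26.6% of its counts on rRNA rows, the second highest share. Whether that share bears on these values was not tested. Xbp1 was highest in Glutamate_BPC, at 92.1, 79.7 and 80.3 CPM, with all 3 libraries above the highest Control library, and it was at 80.3, 74.8 and 82.0 CPM in Glutamate_vesicles, also all above it. Such ranges above Control were found for 1756 of 14398 genes in Glutamate_BPC and 1399 in Glutamate_vesicles. Xbp1 passed neither criterion against Control there (unadjusted p = 0.0732 and 0.122, edgeR). In Glutamate_secret it was at 72.1, 74.8 and 54.7 CPM.

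The 3 preparation groups were compared with each other in one joint test. None of the 10 genes had an unadjusted p below 0.05 in it, against 0.382% of all genes, and the adjusted criterion called 0%. The smallest unadjusted p of the 10 was 0.379, for Sdf2l1. Over all 6 groups, none of the 10 passed the joint test at an unadjusted p below 0.05, against 7.75% of all genes, and 0.00695% of all genes, 1 gene, had an adjusted p below 0.05. Hspa5 came nearest with an unadjusted p of 0.0853, followed by Creld2 at 0.105 and Hsp90b1 at 0.138.

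Each group with glutamate was also set against Control. These comparisons share the Control libraries, so the same Control values stand behind all of them. Against Control, 3 of the 10 genes passed the unadjusted criterion for Glutamate_vesicles (Hspa5, Hsp90b1 and Creld2), where 11.6% of all genes did. For Glutamate_secret 2 did (Hspa5 and Creld2, background 11.7%), for Glutamate_BPC 2 did (Hspa5 and Creld2, background 11.3%), and for Memantine none did (background 1.12%). All those that passed were higher than in Control. Glial markers moved in these comparisons too. Of the 8 oligodendrocyte lineage markers, 4 passed higher in Glutamate_vesicles, 2 in Glutamate_secret and 1 in Glutamate_BPC, with sums of 881 to 1397, 679 to 1312 and 751 to 1162 CPM against 378 to 665 CPM in Control. Of the 7 microglia markers 1 passed higher in Glutamate_secret and 1 in Glutamate_BPC, and of the 8 astrocyte markers 1 in Glutamate_BPC. Their part in the values of the 10 genes was not tested. By adjusted p edgeR called none of the 10 in any of them, where the share of all genes was 0.0139% for Glutamate_vesicles and 0% for the others. DESeq2 called 2 for Glutamate_vesicles, Hspa5 and Hsp90b1, where it called 3.44% of all genes. It called none of the 10 for Glutamate_secret, Glutamate_BPC and Memantine, against 3.12%, 1.78% and 0% of all genes.

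For Hspa5 the log2 fold change over Control was 1.57 (SE 0.50, unadjusted p = 0.00651, adjusted p = 0.230) in Glutamate_vesicles, 1.06 (SE 0.50) in Glutamate_secret, 1.29 (SE 0.50) in Glutamate_BPC and 0.88 (SE 0.49) in Memantine, all from edgeR. Same-numbered libraries of Glutamate_vesicles and Control deviated together and were taken as pairs from these data alone. With the number as a block Hspa5 was called (edgeR adjusted p of 0.0404, log2 fold change 1.63), where 3.74% of all genes were called. For Creld2 the values were 1.32, 1.65, 1.51 and 0.78 in the same order (SE 0.56 to 0.57), and for Hsp90b1 they were 0.76, 0.59, 0.59 and 0.40 (SE 0.30 each). Memantine had the smallest value of the groups with glutamate for each of these genes, though none of these 3 genes passed the criterion in Memantine against Glutamate with all libraries in the fit. For Creld2 that difference was -0.73 (SE 0.56). The counts that passed against Control moved with single libraries, and so did the share of all genes. Without Control 1 that share was 8.1% for Glutamate_vesicles, 13.3% for Glutamate_secret, 8.87% for Glutamate_BPC and 0.92% for Memantine. For the other libraries left out below, the counts are not set beside that share. In Glutamate_vesicles the count went from 3 to 1, Hspa5, without Control 1, Control 3 or Glutamate_vesicles 3. In Glutamate_BPC it went from 2 to 1 without Control 1, or Glutamate_BPC 2, leaving Creld2, and to 3 without Control 3, with Xbp1 added. In Glutamate_secret it went to 1, Creld2, without Control 2, and to 3 without Control 1 or Glutamate_secret 2, namely Sdf2l1, Creld2 and Manf. Without Control 1 Hspa5 had an unadjusted p of 0.164 there. In Memantine it went from 0 to 1, Creld2, without Memantine 2, and the median log2 fold change of the 10 went from 0.25 to -0.23 without Memantine 3.

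Glutamate_vesicles was compared with Memantine as well. None of the 10 passed a criterion, against 0% of all genes by adjusted p and 7.19% by the unadjusted one. The largest differences were 0.69 (SE 0.49) for Hspa5 and 0.65 (SE 0.43) for Pdia4 on the log2 scale, both higher in Glutamate_vesicles. The libraries of these groups were also taken as pairs by their numbers. With the block Pdia4 passed the unadjusted criterion (log2 fold change 0.77, unadjusted p = 0.0433, edgeR), as did 12.3% of all genes. Without Memantine 3 both Pdia4 and Creld2 passed it, a count that is not set beside the share of all genes in that fit.

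Over single libraries Hsp90b1 had the most regular pattern of the 10. All 15 libraries with glutamate were above the highest Control library, and 0.201% of all genes, 29 of 14398, showed this. The lowest of the 15, Glutamate_BPC 3 at 400.4 CPM, was close to the highest Control library at 392 CPM. Hspa5 and Creld2 were above the highest Control library in 14 of 15, Pdia4 in 12, Xbp1 in 11, Sdf2l1 and Manf in 8, Dnajb9 in 7, Herpud1 in 4 and Calr in 3. For Creld2 the exception was Memantine 2, at 11.2 CPM, which was below every Control library.

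**Figure D4:**
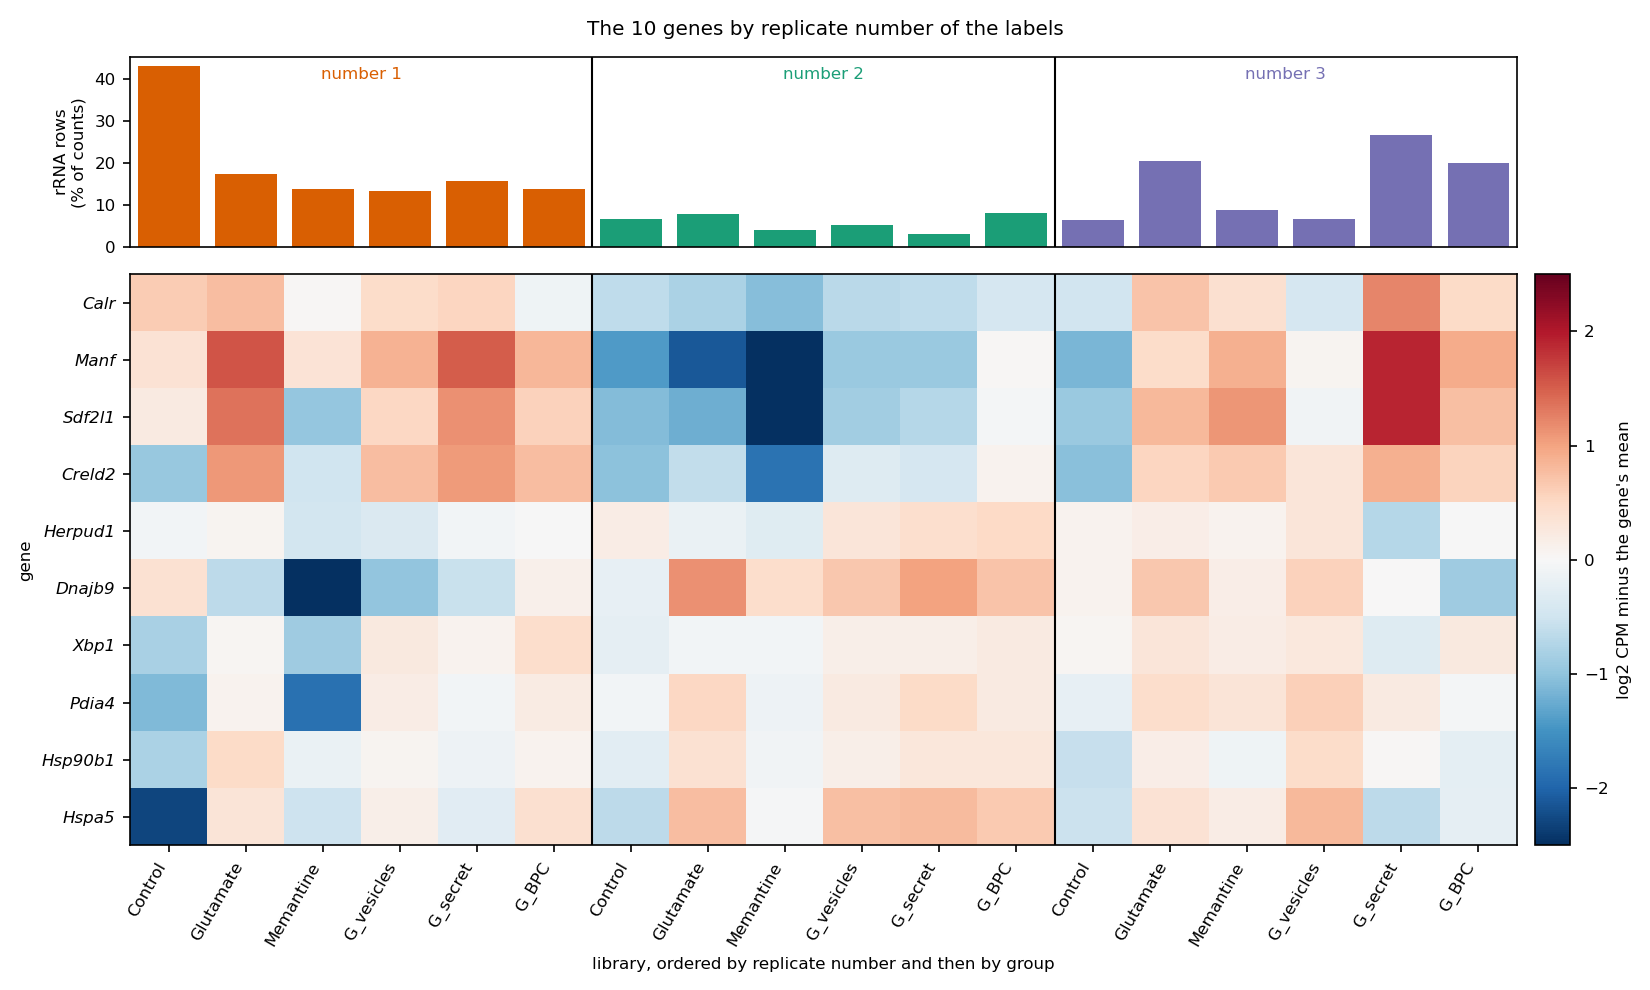
Log2 CPM of the 10 genes minus each gene's mean over the 18 libraries (colour, red above and blue below the mean), with libraries ordered by the replicate number of the labels and then by group. Bars give the share of each library's counts on rRNA rows in percent. Calr, Manf and Sdf2l1 are lowest in number 2 in every group, and the rRNA shares of number 2 are 3.04% to 8.15%.

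Most genes of the table differed by the replicate number of the labels, and several of these 10 did too, at no greater share. In a model with the group and the number, 5 of the 10 were called for the number, Manf (adjusted p = 0.00188), Sdf2l1 (0.00463), Calr (0.00647), Creld2 (0.00881) and Dnajb9 (0.0427), in a table where edgeR called 60.4% of all genes. Sdf2l1, Calr and Manf were lowest in number 2 in 6 of 6 groups and Creld2 in 5 of 6. Dnajb9 went the other way and was highest in number 2 in 5 of 6 groups. Manf, for example, had a median of 55.7 CPM over the 6 libraries of number 2, against 224 in number 1 and 199 in number 3. Hspa5, Hsp90b1, Xbp1, Herpud1 and Pdia4 were not called for the number. The call of Dnajb9 was lost in 10 of the 18 fits that left out 1 library, Hspa5 was called without Control 3 and Pdia4 without Glutamate_BPC 1, and Manf, Sdf2l1, Calr and Creld2 were called in all 18.

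The rRNA share moved with the numbers. It was 13.4% to 43.0% in number 1, 3.04% to 8.15% in number 2 and 6.58% to 26.6% in number 3. As a description over the 18 libraries, which share these depth and quality differences, Pearson's r with the log2 rRNA share was 0.87 for Calr, 0.72 for Manf, 0.69 for Sdf2l1 and 0.47 for Creld2. It was negative for the other six, from -0.33 for Hsp90b1 to -0.60 for Hspa5. What the labels' numbers stand for is not given there. The study's supplement names a day covariate for its clustering, without tying it to these numbers, and the part of RNA quality in these levels was not tested.

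By their levels over the 18 libraries the 10 genes included 2 sets, named here after the values were seen. Sdf2l1, Manf, Calr and Creld2 varied together, with r from 0.71 (Calr and Creld2) to 0.94 (Sdf2l1 and Manf). After group and number means were removed, these r were 0.50 to 0.90. Hspa5, Hsp90b1, Pdia4 and Xbp1 made another set, with r from 0.52 to 0.87, the highest between Hspa5 and Hsp90b1. After group and number means were removed, these r were 0.20 (Hsp90b1 and Xbp1) to 0.83 (Xbp1 and Pdia4), with 0.62 for Hspa5 and Hsp90b1. Between the sets r ran from -0.40 (Hspa5 and Calr) to 0.45 (Xbp1 and Creld2). Both sets hold ERSE genes. The genes most like the mean profile of the 10 over the 18 libraries were Rcc1, Tifa, Atg5, Ghitm, Upp1 and Dscc1, with Pearson's r of 0.94 to 0.95 in log2 CPM. That mean averages over both sets, and 60.4% of all genes differed by replicate number. The likeness is a description of these libraries only.

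Other genes of the pathway were read from fixed lists. In Glutamate against Control none of them was called by adjusted p, and the unadjusted criterion is used here, which 8.07% of all genes passed. The counts below are small, and several lie near that share. Of the 9 UPR sensors and their proteases tested none passed, although all 9 had a log2 fold change above 0. Among 21 other ER chaperones and cochaperones 2 passed, both higher in Glutamate. They were Dnajc3, the cochaperone p58IPK that binds BiP (1.31, SE 0.38, unadjusted p = 0.00318), and Calu, the calcium-binding protein calumenin (0.91, SE 0.34). Dnajc3 was at 21.7, 16.1 and 14.7 CPM in Control and 47.3, 29.8 and 53.0 CPM in Glutamate, with no overlap.

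Of 16 other disulfide isomerases and oxidases, Txndc12 was higher (0.78, SE 0.33) and Tmx4 lower (-1.25, SE 0.51) in Glutamate. Of 23 genes of ER-associated degradation 1 passed, Derl3, a derlin of the retrotranslocation machinery, with a log2 fold change of 2.47 (SE 1.08) at means of 7.99 and 1.35 CPM and overlapping groups. None of 17 genes of ER translocation passed. Of 15 genes of ER exit 1 passed, Kdelr3, a receptor that returns KDEL-bearing chaperones such as BiP to the ER (1.33, SE 0.62), again with overlapping groups.

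In the PERK and ATF4 arm 3 of 16 genes passed, all higher in Glutamate. They were Atf3, a stress-induced transcription factor (2.09, SE 0.53, unadjusted p = 0.00118), Ppp1r15a, the GADD34 phosphatase subunit that reverses PERK signalling (1.97, SE 0.52, unadjusted p = 0.00176), and Cebpg, a partner of ATF4 (0.71, SE 0.28). Ppp1r15a was at 52.0, 48.1 and 42.9 CPM in Control and 320, 122 and 118 CPM in Glutamate, and it was the only gene of these lists besides Hsp90b1 with all 15 libraries with glutamate above Control. Atf3 and Ppp1r15a are also induced by other stresses than that of the ER.

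**Figure D5:**
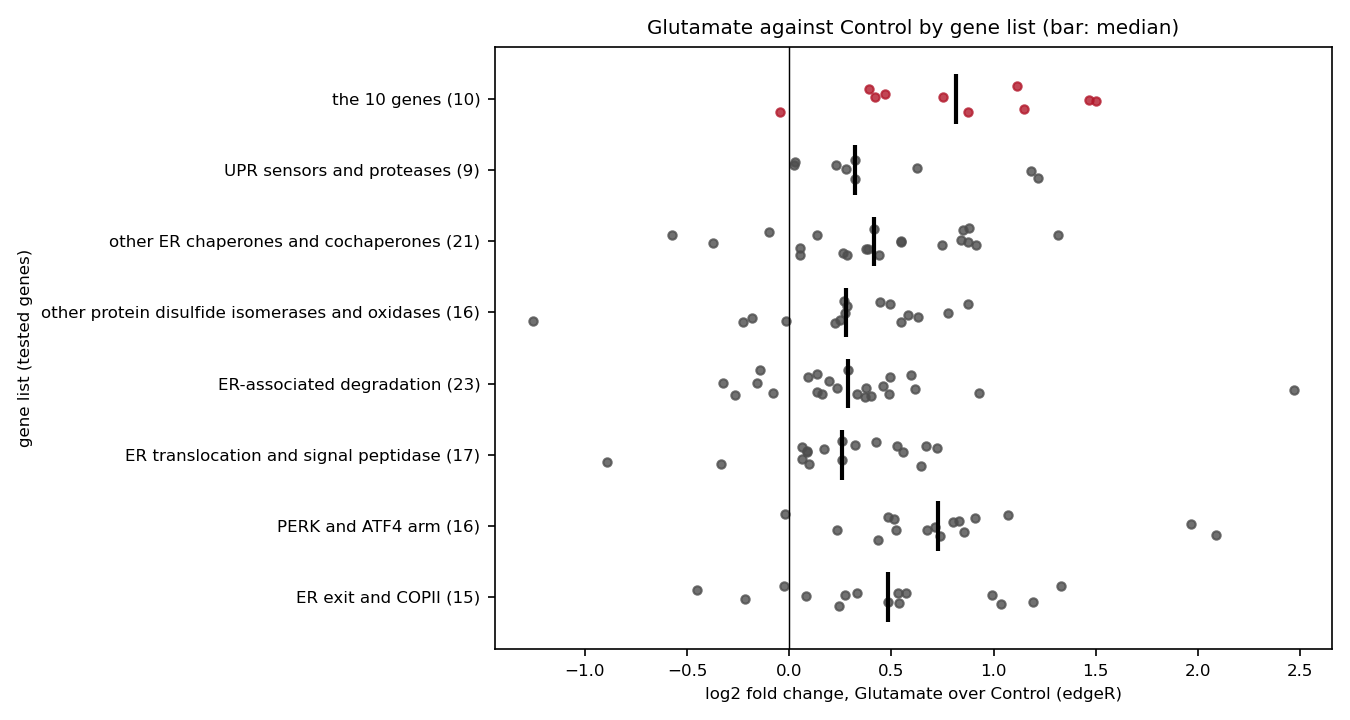
Log2 fold change of Glutamate over Control for each tested gene of the 10 and of the 7 pathway lists, with the number of tested genes in parentheses and a bar at the median. The median is 0.81 for the 10 genes, 0.73 for the PERK and ATF4 arm and 0.26 to 0.48 for the other lists, where the median over all genes is 0.085.

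The medians of the lists, drawn in the plot of fold changes by gene list, were all above that of all genes. They were 0.32 for the UPR sensors, 0.42 for other chaperones, 0.28 for disulfide isomerases, 0.29 for degradation, 0.26 for translocation, 0.73 for the PERK and ATF4 arm and 0.48 for ER exit. In Memantine against Glutamate the medians were below 0 in every list, from -0.08 for degradation to -0.50 for the PERK and ATF4 arm. No gene of these lists passed the criterion there, where 5.06% of all genes did. Against Glutamate, 1 gene of the lists passed in Glutamate_vesicles, Pdia5 (1.03, SE 0.41), a disulfide isomerase.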

How the data were processed

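The authors deposited 18 RNA-seq libraries, their values being expected counts (reads assigned to each gene by estimation, not always whole). Trimmomatic and Cutadapt were used for trimming, then mapping-mode Salmon with rat transcripts of Ensembl (build rn6) with the genome as decoy, and tximport for gene totals. The processing notes of the labels also name STAR. The version of Salmon and the strand setting of the counting are not given in the sources used here, so overlapping genes may share reads. The labels and the paper name different kits and instruments, and no property of the platform was used.

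Expected counts were rounded to whole numbers. The design had been written for counts and was kept. edgeR 4.0.16 in R 4.3.3 was fitted to all 18 libraries with 1 mean per group after filterByExpr (minimum count 10, minimum total 15) and TMM scaling. Two-sided quasi-likelihood tests were adjusted by Benjamini-Hochberg over 14398 genes at 0.05. A second criterion was an unadjusted p below 0.05 with a fold above 1.5. The SE of a log2 fold change is its size divided by the square root of F. Log2 CPM had a prior count of 2. The steps were tested on simulated data. The 78 rRNA rows were found by RefSeq symbols.

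Alternatives were RLE and upper-quartile scaling, removal of rRNA rows, no low-count filter, the likelihood-ratio test (the study's own), DESeq2 1.42.0, a fit of only the groups compared, a replicate block, the block with the log2 rRNA share, and each library left out. Same-numbered libraries deviated together, with r above 0.1 in all 3 pairs, in Memantine against Glutamate (0.57 to 0.89), Glutamate_secret against Glutamate (0.45 to 0.89), Glutamate_BPC against Glutamate (0.45 to 0.75), Glutamate_vesicles against Control (0.21 to 0.60) and Glutamate_vesicles against Memantine (0.16 to 0.85). There the numbers were taken to pair the libraries. This rests on the data, since the labels do not say what a number marks and the study's day covariate is not tied to it. Number 3 had r of 0.0046 in Glutamate_vesicles against Glutamate and -0.0019 in Memantine against Control, which were not taken as paired. The numbers thus did not pair the same groups throughout, and a result with the block holds only if they mark pairs.

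The genes, lists and tests were chosen with earlier results of these data known. Named were all 10 genes, up to 3 genes per pathway list and comparison with the smallest unadjusted p below 0.05, and the 6 genes most like the mean profile. Promoter sequences came from RefSeq (GRCr8) and were searched with Python 3.11.15. Protein sequences were not used here. Listed genes without a row (Mbtps2, Rnf139, Srprb, Sar1a and Cldn5) were not used.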

Additional observations from a re-analysis of the deposited data

How the results depend on the processing

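Counts of the 10 genes below are given as past the adjusted criterion (called) or past the unadjusted p and fold (passed). DESeq2 called 1 in Glutamate against Control (1.61% of all genes) and 2 in Glutamate_vesicles against Control (3.44%). Over all 6 groups it called 1 (4.98%), and 2 had an unadjusted p below 0.05. With it 4 passed in each of Glutamate_secret and Glutamate_BPC against Control, where 14.8% and 14.4% of all genes did. Where the numbers were taken to pair the libraries, the replicate block called 1 in Glutamate_vesicles against Control (3.74% of all genes). With it 1 passed in Memantine against Glutamate (7.96%) and 1 in Glutamate_vesicles against Memantine (12.3%). In Glutamate_vesicles against Control 4 passed (Pdia4 added to 3), where 19.6% of all genes did. The block changed no other call in those comparisons. In the other comparisons the libraries share only a number. There the replicate block gave 1 passed in Memantine against Control (2.74% of all genes) and 5 in Glutamate_BPC against Control (21.4%). In Glutamate_secret against Control 1 was called (4.86% of all genes) and 5 passed (22.1%). Over all 6 groups 2 had an unadjusted p below 0.05 with the block, and 3.45% of all genes were called. The share of all genes at that unadjusted p was 7.75% in the edgeR fit without a block. It is not given here for the block, DESeq2 or the block with the rRNA share. In Glutamate against Control r was 0.59, 0.57 and -0.12 for numbers 1 to 3. The block left 0 called and 4 passed there, where 1.15% of all genes were called and 14.7% passed. The replicate block with the log2 rRNA share called 2 in Glutamate against Control, Hspa5 and Hsp90b1, where it called 4.26% of all genes. It called 1 in Glutamate_vesicles (4.68%), 2 in Glutamate_secret (10.3%) and 2 in Glutamate_BPC (7.79%) against Control. Over all 6 groups it called 1 (6.99%), and 3 had an unadjusted p below 0.05. In that fit 2 passed in Memantine against Glutamate (12.2% of all genes) and 1 in Glutamate_secret against Glutamate (14.1%). Against Control 1 passed in Memantine (3.81%), 5 in Glutamate_secret (29.4%) and 5 in Glutamate_BPC (25.8%). In Glutamate_vesicles against Memantine 2 passed (16.3%). In Glutamate_secret against Control 1 passed with upper-quartile factors (11.4% of all genes), with no filter on low counts (8.62%), and with only the groups compared (9.22%). That last setting also left out Hsp90b1 in Glutamate and in Glutamate_vesicles against Control, where 2 passed each. The cause of these shifts was not tested.

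With each library left out in turn, the number that passed was 0 to 3 in Memantine against Glutamate, 0 to 1 in Memantine against Control, 1 to 3 in Glutamate_vesicles, 1 to 3 in Glutamate_secret and 1 to 3 in Glutamate_BPC against Control, 0 to 2 in Glutamate_vesicles against Memantine, and 0 to 1 at an unadjusted p over all 6 groups. In Glutamate against Control it was 2 to 3, with Creld2 lost without Glutamate 1. The share of all genes that passed moved as well. Without Control 1 it ran from 0.92% for Memantine to 13.3% for Glutamate_secret against Control. The share is not given here for each fit, so these ranges describe only how the counts depend on single libraries. Small log2 fold changes turned sign. Herpud1 in Glutamate against Control was 0.0048 with the block and rRNA share and -0.12 to 0.051 with 1 library left out. Manf in Memantine against Glutamate ran from -1.14 to 0.43. Against Glutamate, Hspa5 in Glutamate_vesicles was -0.43 with the block and rRNA share and -0.017 to 0.29 with 1 library left out, and in Glutamate_BPC it ran from -0.37 to 0.033. Creld2 ran from -0.52 to 0.24 in Glutamate_vesicles, from -0.20 to 0.57 in Glutamate_secret and from -0.33 to 0.43 in Glutamate_BPC. Hspa5 and Hsp90b1 stayed above 0 against Control under every alternative run, whereas Creld2 in Memantine against Control went from 0.78 to 0.0026 without Memantine 3. Over all genes tested, 0 were called in Glutamate against Control, whereas the likelihood-ratio test called 45, DESeq2 232, the block 166, and the block with rRNA share 614. Past the unadjusted p and fold were 1162 genes, 2111 with the block and 2712 with the block and rRNA share. The median log2 fold change of the 10 genes in Glutamate against Control ran from 0.72 to 0.87 over the alternatives.

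With 3 libraries a group, no difference of the 10 genes below 2 times its SE had an unadjusted p under 0.05. The rRNA share and the cell marker sums differed between libraries. The rRNA share entered the alternative fit with the block, without a test of its own effect, and the marker sums entered no fit. Their part in these results was not tested.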
